A study of Mus musculus with 6 samples.

Results

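The genes described here are 10 members of the LIF and gp130 cytokine pathway in mouse bone marrow stromal cells: the SOCS inhibitors Socs1, Socs2, Socs3, Socs5 and Cish, the ligands Lif and Clcf1, the receptor chains Lifr and Osmr, and the transcription factor Stat3. They were taken by gene symbol from the deposited count table, where all 10 were found among 53735 features, and all 10 had enough reads to be tested among 13092 genes. The cells were wild-type mesenchymal stromal cells, sorted from marrow by CD51 and by the absence of CD31, CD45 and lineage markers. They were grown at 2% oxygen through passage 2 or 3. The fed group (n = 3 libraries) received dye-labelled apoptotic thymocytes, 5000000 per well, for 24 h at 5% oxygen, and cells that had taken up the dye were sorted. The control group (n = 3) received no thymocytes and was sorted too. The strain, age and number of mice are not stated, nor is the oxygen of the control wells during those 24 h, so whether the groups also differed in oxygen is unknown here.

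Cytokines of the LIF, IL-6 and IL-11 family signal through gp130, the shared receptor chain encoded by Il6st. LIF binds the LIF receptor (Lifr) paired with gp130, oncostatin M in the mouse mainly the oncostatin M receptor (Osmr) paired with gp130, and Clcf1 reaches the Lifr and gp130 pair through Cntfr. Janus kinases on the receptors phosphorylate STAT3, and STAT3 switches on Socs3, whose protein binds gp130 and shuts the kinases off. Socs1 restrains interferon signalling and Socs2 and Cish mainly growth hormone and other STAT5 pathways. In bone, gp130 cytokines made by stromal and osteoblast lineage cells act on bone formation, bone resorption and blood cell production.

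The libraries held 19069074 to 22410047 counts. Markers of the sorted cells were present: the summed level of 9 stromal markers was 36154 to 37620 counts per 1000000 (CPM) in control and 31642 to 33568 CPM in fed libraries, and 6 of the 9 were called lower in fed cells, none higher. The sum of 15 thymocyte markers was 0.417 to 0.948 CPM in control and 0.782 to 1.73 CPM in fed libraries, with Cd3g, Ptcra, Rag2 and Cd2 at 0 throughout and Cd3e, Cd4 and Cd8a at 0 in the control group. Most of the control sum came from Lck (0.371 to 0.790 CPM in control, 0.184 to 0.529 CPM in fed libraries, not called). Rag1, Cd8a, Cd8b1, Dntt and Ptprc were higher in every fed than in every control library, and Themis was lower. All of these were too low to test, with 1 to 12 counts of the higher ones in each fed library. The sum of 9 macrophage markers was 9.78 to 11.1 CPM in control and 14.97 to 16.8 CPM in fed libraries. Most of it came from Csf1r (not called) and Lyz2 (called higher, log2 fold change 1.17). Adgre1, C1qa, C1qb and C1qc were at 0 in every control library and present in every fed library, at 0.132 to 0.496 CPM, too low to test. The sum of 5 endothelial markers was 2.83 to 3.49 CPM in control and 2.67 to 3.30 CPM in fed libraries. Most of it came from Tek (not called), with Cdh5 and Emcn at 0 throughout. In such bulk libraries fewer cells of a type and less RNA per cell cannot be told apart.

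In fed cells the receptor genes Il6st, Osmr and Lifr, the kinase genes Jak1 and Jak2 and Stat3 were lower, the feedback inhibitor Socs3 fell most among the members, and Socs2 and the ligand gene Clcf1 rose. By edgeR's quasi-likelihood test at an adjusted p under 0.05, 2 of the 10 members were higher (Socs2, Clcf1), 5 were lower (Socs1, Socs3, Lifr, Osmr, Stat3) and 3 did not pass (Socs5, Cish, Lif). Over all genes tested, 39.5% were called, 20.5% higher and 19.0% lower. The groups did not overlap for 9 of the 10 members, the exception being Socs5, against 49.1% of all genes tested. The median log2 fold change of the members was -0.19, and that of all genes tested was -0.01.

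**Figure D1:**
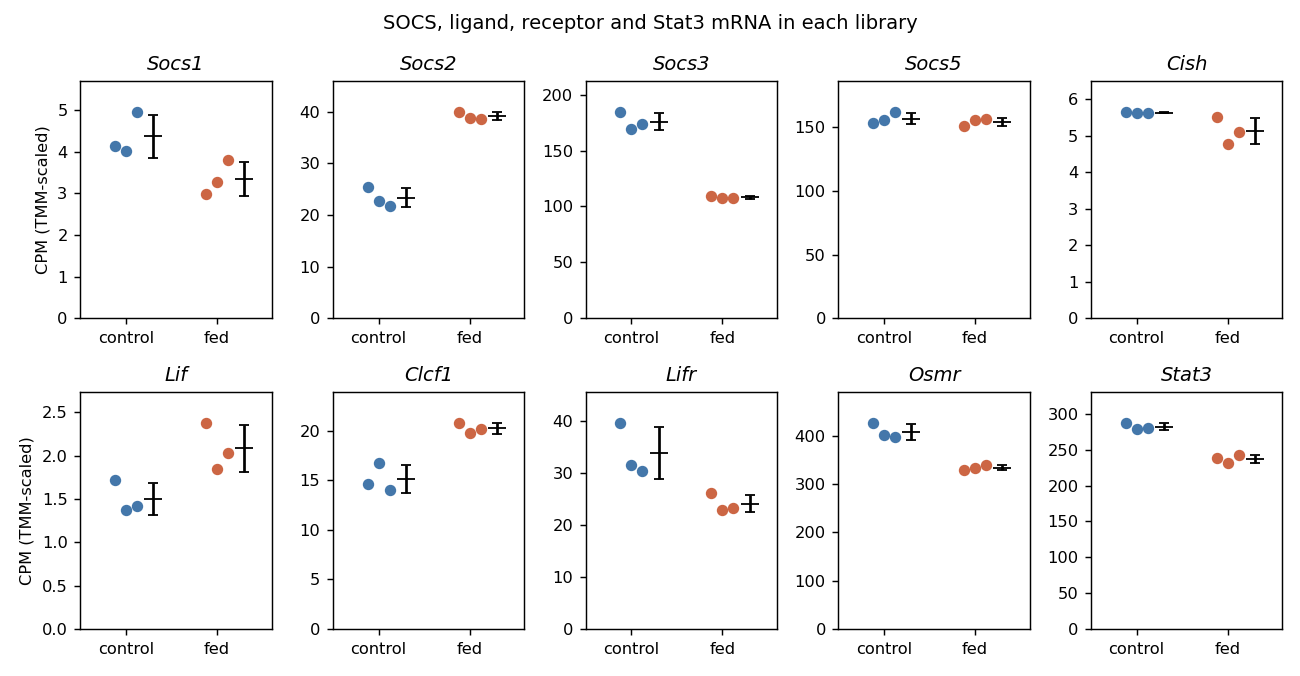
Each panel plots the level of 1 gene in CPM, with a point for each of 3 control and 3 fed libraries and, beside them, the mean with its SD; every axis starts at 0. Socs3, Lifr, Osmr and Stat3 lie lower in the fed group and Socs2 and Clcf1 higher, while the points of Socs5 overlap.

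Socs3 (chr11:117966079-117970047 in GRCm38, GENCODE M21), the feedback inhibitor that STAT3 induces and that binds gp130, had 185, 169.6 and 174 CPM in the control libraries and 109.8, 107 and 108 CPM in the fed libraries. The 3 fed libraries lay close together and far below the lowest control library. Means were 176 ± 7.71 CPM in control and 108 ± 1.29 CPM in fed cells (SD, n = 3), and Socs3 fell by 0.70 ± 0.040 on the log2 scale (SE, adjusted p = 8.32e-11). Of the genes tested, 2.41% had a more negative value. No other member fell as far.

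Of the members with a RefSeq promoter window, Socs3 was the only one that held a STAT motif there. The motif searched was TTCNNNGAA, the palindrome that STAT dimers bind, which reads the same on both strands, in the 250 bases before each start (RefSeq, GRCm38.p6). It was found in 1 of the 7 members with a window (Cish, Lif, Lifr, Osmr, Socs1, Socs3, Stat3). The Cish and Osmr windows lie inside those genes, with all 250 bases in annotated exons, and the Lifr windows also lie inside the annotated gene. For these genes the search therefore does not show whether the sequence before the annotated start lacks the motif. A gene can have more than 1 window. By windows, it was in 1 of 8 of the members (12.5%) and in 7.02% of all 32851. Of 63 other genes of the pathway lists with a window, 8 held it, in 10 of 86 windows (11.6%). Of these 8 genes Bcl6, Irf1 and Gbp7 were called lower, Icam1 and Psmb8 were not called and Igfals, Irf8 and Prlr were too low to test. For Socs3 and those called lower, 1 site each is shown with 10 bases on either side, read 5′ to 3′ on the strand of the gene, with the motif in capitals.
Socs3: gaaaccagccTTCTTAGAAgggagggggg
Bcl6: aggccgcggcTTCCTGGAAagttacttct
Irf1: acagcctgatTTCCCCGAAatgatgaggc
Gbp7: tccgttttctTTCCAGGAAaagcagaagc

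The Socs3 site begins 154 bases before the start, at chr11:117969502-117969530 on the minus strand, and 77 of the 250 bases of that window lie in an exon of Socs3 in GENCODE M21. The Bcl6 site shown is at chr16:23981433-23981461 (minus strand), in a window that holds 3 matches, the Irf1 site at chr11:53769914-53769942 (plus strand) and the Gbp7 site shown at chr3:142530220-142530248 (plus strand), in a window that holds 2 matches. Another Bcl6 window, at chr16:23988853-23989102, holds 1 match, 118 bases before its start, which is not shown. A match describes these letters and is not a measured binding site.

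Socs2 (chr10:95385362-95417180), an inhibitor best known for restraining growth hormone signalling, went the other way. It had 25.5, 22.8 and 21.8 CPM in the control libraries and 39.9, 38.9 and 38.6 CPM in the fed libraries, so every fed library was higher than every control library. Means were 23.4 ± 1.91 CPM in control and 39.1 ± 0.705 CPM in fed cells, and Socs2 rose by 0.74 ± 0.060 on the log2 scale (adjusted p = 9.24e-09), the 197th highest value among the genes tested. Cish (chr9:107296026-107302784), its closest relative in the family and a STAT5 target, had 5.65, 5.62 and 5.64 CPM in control and 5.50, 4.78 and 5.11 CPM in fed libraries. The Cish groups did not overlap, but the difference of -0.14 ± 0.12 on the log2 scale did not pass (adjusted p = 0.368, 95% interval -0.38 to 0.10). Exons of Cish overlap those of 2 other annotated genes on the opposite strand, over 4.07% and 7.46% of its exon length, and whether reads were counted by strand is unknown here.

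Among genes of the growth hormone and STAT5 axis beside these members, more were called lower than higher, against 19.0% lower and 20.5% higher over all genes tested. Of 8 listed, 6 were tested, 1 was higher (Bcl2l1) and 4 were lower (Pim1, Bcl6, Igf1 and Epor), and their median log2 value was -0.36. Pim1, Bcl6 and Bcl2l1 are also in the list of STAT3-induced genes. The growth hormone receptor gene Ghr had 44.1 to 46.6 CPM in control and 46.8 to 53.1 CPM in fed libraries (log2 fold change 0.11 ± 0.053, adjusted p = 0.101, but 0.0342 with library totals only and 0.0498 with the replicate number as a block). Igf1, the growth factor that growth hormone induces, fell from 28.8 ± 3.87 to 21.2 ± 2.00 CPM (adjusted p = 0.00388). Of the STAT5 genes, Stat5a fell from 28.4 ± 0.781 to 22.6 ± 0.172 CPM (adjusted p = 0.000109), and Stat5b had 40.3 ± 0.969 and 39.3 ± 1.54 CPM (adjusted p = 0.556).

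Socs1 (chr16:10782240-10785536), the inhibitor of interferon signalling, was the weakest of the called members. It had 4.12, 4.01 and 4.95 CPM in the control libraries and 2.97, 3.26 and 3.79 CPM in the fed libraries, which did not overlap. It fell by 0.37 ± 0.15 on the log2 scale (adjusted p = 0.0464). The call was lost in 10 of 15 alternatives, among them DESeq2 (adjusted p = 0.148). It was also lost on leaving out any of control replicates 1 (0.0554), 2 (0.0518) and 3 (0.177) or either of fed replicates 1 (0.150) and 2 (0.118). These counts are small, 85 to 94 in the control and 60 to 86 in the fed libraries.

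Among genes of the interferon gamma pathway, which Socs1 restrains, more were called lower than higher. Over all genes tested, 19.0% were called lower and 20.5% higher. Of 9 tested of 12 listed, 5 were lower and 1 higher (3 lower on leaving out fed replicate 1 or 3), and their median log2 value was -0.33. The receptor gene Ifngr1 fell from 109.6 ± 3.81 to 87.5 ± 2.24 CPM (adjusted p = 1.86e-06), while Ifngr2 rose from 44.0 ± 1.44 to 49.7 ± 1.99 CPM (adjusted p = 0.00640). The transcription factor Irf1 fell from 24.3 ± 1.91 to 20.2 ± 1.10 CPM and the guanylate-binding protein gene Gbp2 from 36.7 ± 5.99 to 24.3 ± 1.09 CPM. Control replicate 3 was the highest control library for Socs1, Gbp2 (43.0 CPM against 31.0 and 36.2) and Gbp3 (13.0 against 3.68 and 4.87). Without it, Gbp2 had a log2 value of -0.47 (adjusted p = 1.11e-05), and over the 6 fits that each leave out 1 library the adjusted p ranged from 1.67e-06 to 0.0290.

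Socs5 (chr17:87107679-87137839), which acts on the EGF receptor and IL-4 pathways, was the member whose groups overlapped. It had 153, 156 and 162 CPM in the control libraries and 151, 156 and 157 CPM in the fed libraries. The log2 fold change was -0.02 ± 0.038 (adjusted p = 0.672), with a 95% interval of -0.10 to 0.06. Of the remaining SOCS genes, Socs4 fell from 35.3 ± 1.61 to 29.8 ± 1.10 CPM (adjusted p = 0.00154). On the log2 scale Socs6 differed by 0.12 ± 0.065 (adjusted p = 0.162) and Socs7 by -0.04 ± 0.075 (0.690). Across the 8 SOCS genes, 1 was therefore higher, 3 lower and 4 not called.

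**Figure D2:**
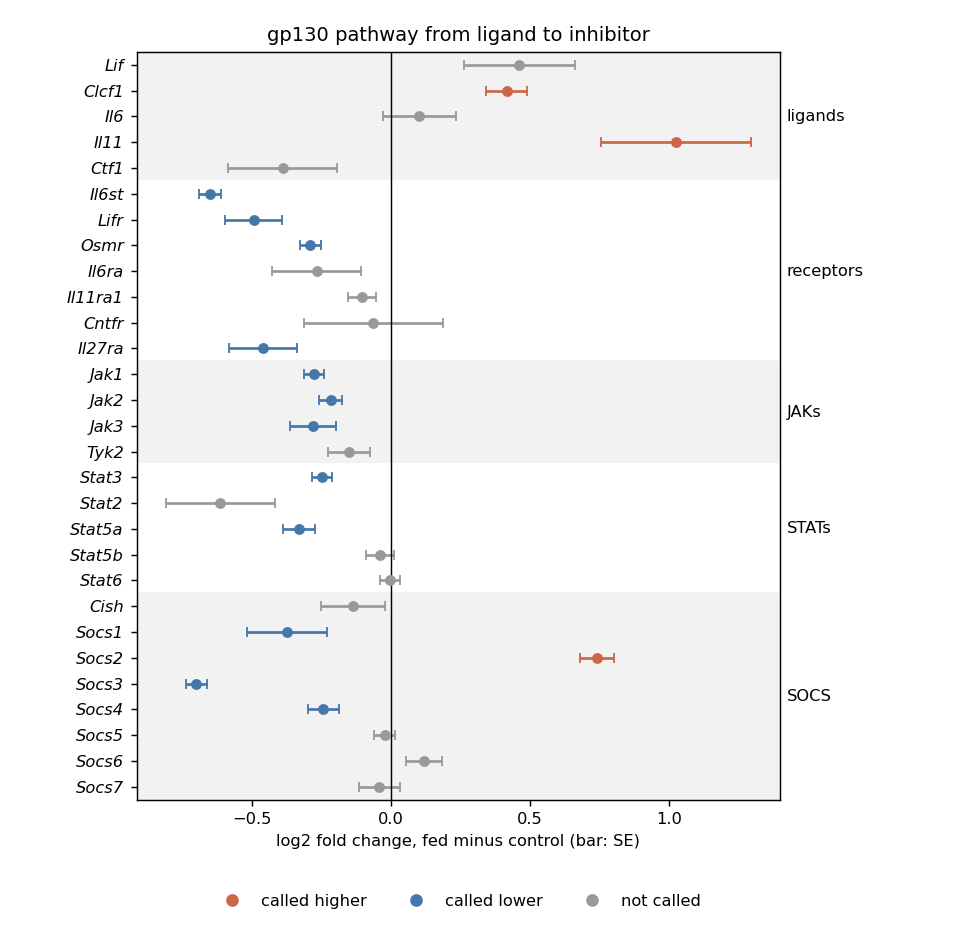
Log2 fold changes, fed minus control, of tested ligand, receptor, JAK, STAT and SOCS genes, with bars of 1 SE and the colour of the call at an adjusted p under 0.05. The called receptors, kinases and STATs plotted all lie below 0, the called ligands Clcf1 and Il11 above it, and the SOCS genes on both sides.

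The ligands did not follow the receptors. Clcf1 (chr19:4214238-4223490), a cytokine of the gp130 family, had 14.6, 16.8 and 14.1 CPM in the control libraries and 20.8, 19.8 and 20.1 CPM in the fed libraries. All fed libraries were above all control libraries, and Clcf1 rose by 0.42 ± 0.073 on the log2 scale (adjusted p = 0.000120). An annotated protein-coding gene on the same strand shares 8.17% of the exon length of Clcf1, so some of its reads are uncertain.

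Lif (chr11:4257557-4272514) itself was scarce. It had 1.71, 1.37 and 1.42 CPM in control and 2.38, 1.84 and 2.03 CPM in fed libraries, from 27 to 37 and 40 to 48 counts. The groups did not overlap, but the difference of 0.46 ± 0.20 on the log2 scale missed the threshold (adjusted p = 0.0727, 95% interval 0.05 to 0.88 before adjustment). It also missed it in all 15 alternatives, where the adjusted p ranged from 0.0542 to 0.225.

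Of the 9 other gp130 ligand and partner genes listed, 4 were tested and 1 was higher (1 was also lower without control replicate 3). The higher one was Il11, which signals through Il11ra1 and gp130. Il11 had 0.788, 0.756 and 1.37 CPM in the control libraries and 2.63, 1.75 and 1.54 CPM in the fed libraries. The groups did not overlap, and Il11 rose by 1.03 ± 0.27 on the log2 scale (adjusted p = 0.00493). Il6 had 5.34 to 7.23 CPM in control and 5.77 to 7.53 CPM in fed libraries, which overlapped (adjusted p = 0.571). Osm, the ligand of Osmr, had no count in any library.

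Both receptor genes among the members fell. Lifr (chr15:7090614-7197489) had 39.6, 31.5 and 30.3 CPM in the control libraries and 26.0, 22.9 and 23.3 CPM in the fed libraries. Control replicate 1 was the highest, and the lowest control library was still above the highest fed library. Lifr fell by 0.49 ± 0.10 on the log2 scale (adjusted p = 0.00338). Without control replicate 1 the log2 value was -0.36 (adjusted p = 0.000276), and over the 6 fits that each leave out 1 library the adjusted p ranged from 5.91e-05 to 0.0271.

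Osmr (chr15:6813577-6874969), the more abundant of these receptors, had 427, 401 and 397 CPM in the control libraries and 329, 334 and 339 CPM in the fed libraries, with no overlap. It fell by 0.29 ± 0.038 on the log2 scale (adjusted p = 3.60e-06). Il6st, which encodes the gp130 chain itself and is not among the 10 members, had 2407, 2326 and 2226 CPM in control and 1504, 1436 and 1489 CPM in fed libraries. Its log2 value of -0.65 ± 0.040 (adjusted p = 2.32e-10) had a 95% interval of -0.74 to -0.57, apart from that of Osmr at -0.37 to -0.21. Per length, Il6st stood 6.12 to 6.33 times as high as Osmr in the control libraries and 4.69 to 5.00 times in the fed libraries. The ratio of Osmr to Lifr per length overlapped between the groups, at 9.60 to 11.7 and 11.2 to 13.0. No test was run on these ratios.

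Of the 5 other gp130 receptor genes listed, all were tested, 2 were lower and none higher. They were Il6st and Il27ra, which fell from 5.88 ± 0.364 to 4.28 ± 0.423 CPM (adjusted p = 0.00515). Il6ra, the specific receptor for IL-6, had 3.78 to 4.91 CPM in control and 2.91 to 4.41 CPM in fed libraries (adjusted p = 0.198, and 0.0498 without fed replicate 2).

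Stat3 (chr11:100885098-100939540), the transcription factor at the end of this chain, had 288, 279 and 280.3 CPM in the control libraries and 239, 232 and 243 CPM in the fed libraries. Every fed library was below every control library, and Stat3 fell by 0.25 ± 0.036 on the log2 scale (adjusted p = 1.46e-05). Exons of the neighbouring Stat5a on the opposite strand overlap 0.756% of the exon length of Stat3. The ratio of Socs3 to Stat3 per length was 2.01 to 2.11 in control and 1.46 to 1.53 in fed libraries.

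Of the kinases that join the receptors to STAT3, Jak1 and Jak2 were lower, and Tyk2 had a log2 value of -0.15 (adjusted p = 0.128). Jak1, the main kinase of gp130, fell from 606 ± 4.75 to 501 ± 9.73 CPM (adjusted p = 2.92e-06), and Jak2 from 202 ± 9.15 to 174 ± 6.48 CPM (adjusted p = 0.000261). Of 9 tested JAK genes and other STAT genes, 5 were lower and none higher (3 lower without control replicate 1), and their median log2 value was -0.28. Stat5a and Jak3 were among the other called genes of this list. The call of Jak3 was lost without control replicate 1 (adjusted p = 0.0953) and by DESeq2 (0.0507).

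The 9 stromal markers were spread over a range of log2 values that includes those of Osmr, Stat3 and Jak1. Socs3 and Il6st, at -0.70 and -0.65, lay below that range, and Socs2 and Clcf1, at 0.74 and 0.42, above it. Lifr, at -0.49 ± 0.10 (SE), was not set apart from the lowest marker, Cxcl12, at -0.45 ± 0.13. The 95% interval of Cxcl12, -0.79 to -0.10, also holds the values of Socs3 and Il6st. The surface markers Pdgfra, Pdgfrb, Thy1 and Ly6a had log2 values of -0.31, -0.29, -0.38 and -0.24 and were called lower. The collagen genes Col1a1 and Col1a2 were also called lower, at -0.12 and -0.19. The markers not called were Itgav, which encodes CD51, at -0.06 (adjusted p = 0.275), Lepr at -0.12 (0.507) and Cxcl12 at -0.45 (0.0538). The macrophage marker sum given above was higher in fed libraries. The part of either in the changes of the pathway was not tested.

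Genes that STAT3 is known to induce did not share a direction. Of 17 listed and tested, 7 were higher, 5 were lower and 5 did not pass, and their median log2 value was 0.09. The lower ones included Pim1, a survival kinase (32.9 ± 1.81 to 20.1 ± 0.155 CPM, adjusted p = 1.42e-08), Bcl3, an IkB family regulator (50.7 ± 0.874 to 32.8 ± 3.17 CPM, adjusted p = 6.68e-08), and the IL-4 receptor gene Il4ra (740.5 ± 21.6 to 493 ± 16.9 CPM, adjusted p = 5.51e-10). These changes, of -0.72, -0.63 and -0.59 on the log2 scale, were close in size to that of Socs3. Cebpb, a transcription factor of acute-phase genes, fell by 0.46 and Bcl6, a transcriptional repressor, by 0.28 on the log2 scale.

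The higher genes of that list were led by secreted acute-phase proteins. Lcn2, an iron-siderophore carrier, rose from 106 ± 2.07 to 203 ± 5.92 CPM (log2 fold change 0.93 ± 0.038, adjusted p = 1.33e-12). Serpina3n, a protease inhibitor, and Saa3, a serum amyloid, which were chosen after their values were seen, had log2 fold changes of 1.44 ± 0.10 and 0.99 ± 0.14 (adjusted p = 4.22e-05 and 0.00285). Timp1, an inhibitor of matrix proteases, rose by 0.25 on the log2 scale and Bcl2l1, which encodes the survival protein Bcl-xL, by 0.50.

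**Figure D3:**
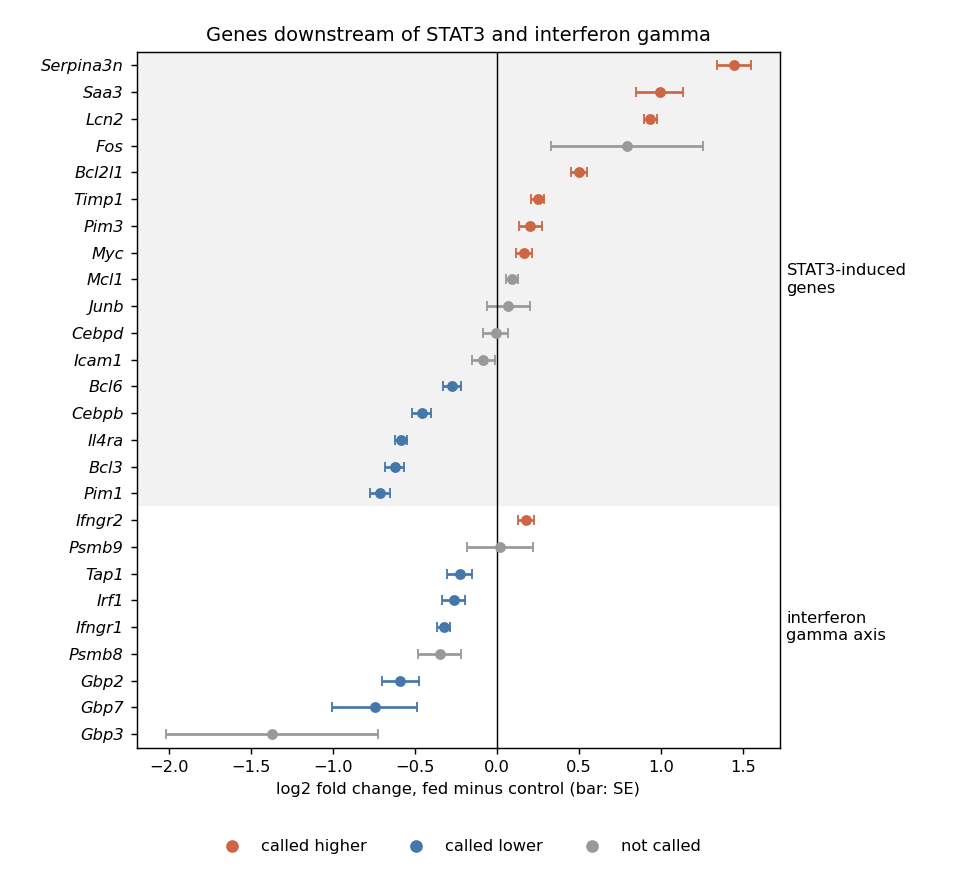
Log2 fold changes, fed minus control, of tested genes that STAT3 is known to induce and of the interferon gamma list, ordered by value, with bars of 1 SE and the colour of the call. The first list spans from Pim1 at -0.72 to Serpina3n at 1.44, and the second lies mostly below 0.

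Per length, the members fell into an abundant and a scarce set. Levels here are CPM per kb of exon length, counting every annotated exon of a gene in GENCODE M21, which lowers the value of genes with unused exons. In control cells the order ran from Il6st (209 ± 8.18) over Jak1 (83.9 ± 0.657), Socs3 (60.9 ± 2.67), Jak2 (40.3 ± 1.82), Osmr (33.7 ± 1.36), Stat3 (29.6 ± 0.521) and Socs5 (24.5 ± 0.723) to a scarce set. That set held Clcf1 (3.98 ± 0.376), Lifr (3.14 ± 0.471), Il6 (2.51 ± 0.410), Socs2 (2.45 ± 0.200), Socs1 (1.38 to 1.70), Cish (0.878 ± 0.00255), Il6ra (0.496 ± 0.0667) and Lif (0.345 ± 0.0427), with Osm at 0. Neighbours in the control order whose libraries overlapped were Lifr with Il6 and Il6 with Socs2.

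In fed cells Socs2 (4.11 ± 0.0739) stood above Il6 (2.71 ± 0.367) and Lifr (2.23 ± 0.158), and Lif (0.479 ± 0.0630) beside Il6ra (0.412 ± 0.0894). The fed neighbours whose libraries overlapped were Stat3 with Socs5, Il6 with Lifr and Lif with Il6ra. Socs3 (37.5 ± 0.446) kept its place between Jak1 and Jak2, closer to Jak2 (34.6 ± 1.29) than in control cells.

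**Figure D4:**
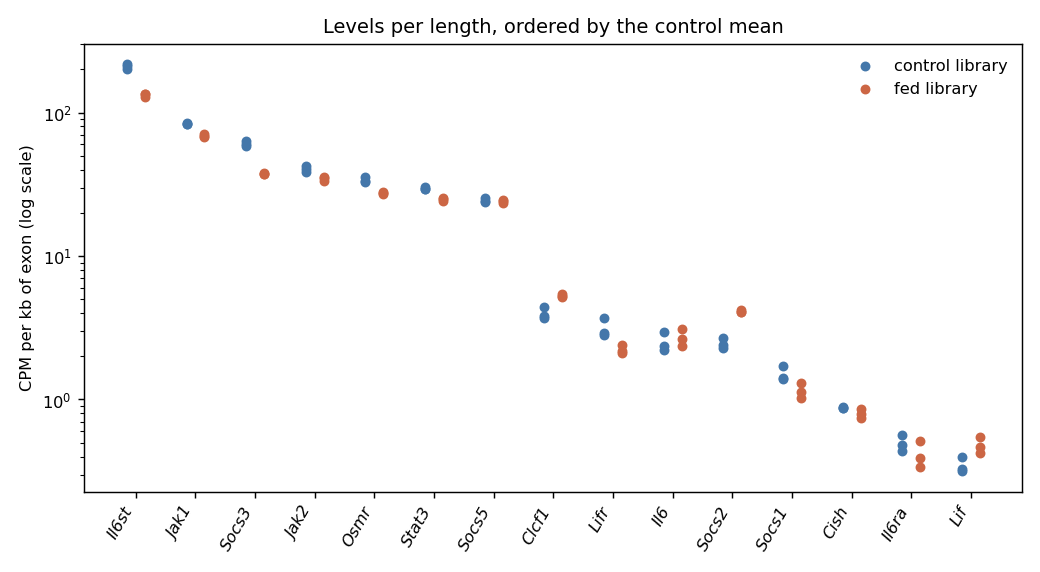
Levels in CPM per kb of exon length on a log axis, with a point for each control and each fed library, ordered by the control mean. Il6st is the highest at 209 in control and 133 in fed cells, and a gap separates Socs5 from Clcf1 and the scarcer genes.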

How the data were processed

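RNA sequencing measured 3 control and 3 fed libraries, grouped by the treatment given in the labels. The authors deposited 1 table of raw gene counts. Their processing notes name STAR 2.6.0c, Trimmomatic 0.36 and, from Subread 1.6.1, featureCounts, with GRCm38 as the build. The annotation release and the strand setting were not given in the sources used here. Totals ran from 19069074 to 22410047 counts. In R 4.3.3, edgeR 4.0.16 kept genes by filterByExpr, scaled libraries by TMM and tested fed against control for all 13092 genes by the quasi-likelihood F-test (robust, no block). A gene was called at a Benjamini-Hochberg adjusted p under 0.05. The test was checked on simulated counts. CPM use TMM-scaled totals, errors of CPM are SDs, and SEs of log2 fold changes were derived from F. Nothing says that the 3 libraries of a group came from separate animals or cultures. The p-values therefore measure the spread between these libraries alone, and that spread may be technical. Libraries of a group differed by more than sampling noise.

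The members and lists were chosen with earlier results of these data known. All members were named, with up to 4 called genes of each pathway list by smallest adjusted p and Il6st, Il6, Il6ra, Jak1, Jak2, Stat5a, Stat5b, Socs4, Socs6, Socs7 and Ghr; markers and others were named after their values were seen. Some genes of this rule are not reported here. Coordinates and exon lengths are from GENCODE M21 and promoters from RefSeq, both on GRCm38. Alternatives were other normalizations and filters, DESeq2 1.42.0, limma-voom (limma 3.58.1), a fit that was not robust, a replicate block and each library left out.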

Additional observations from a re-analysis of the deposited data

How the results depend on the processing

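Over 15 alternatives, the number of members called was 6 or 7, with 2 higher in each and 4 or 5 lower, the difference being Socs1. Without 1 library it was likewise 6 to 7. No named gene reversed while called. Socs1 lost its call with library totals only (adjusted p = 0.0684), no filter (0.0688), limma-voom (0.0550), no robust estimation (0.0550) and DESeq2 (0.148), beside the 5 left-out libraries given above. Elob, Eloc and Pias2 lost theirs in 1 to 2 alternatives. The number of genes called ranged from 3971 by DESeq2 to 5848 with the replicate block. The share of calls that were higher was 51.8%, and 61.1% with library totals only. Same-numbered control and fed libraries deviated together weakly (correlations of 0.10, 0.02 and 0.13), and control replicate 2 correlated best with fed replicate 1, so the numbers were not taken to pair the samples. The block changed no call of a member, with 7 called. Depth limits Lif, Il11, Socs1, Epor and Gbp7, which had fewer than 100 counts per library. Epor had 16 to 17 counts in control and 5 to 11 in fed libraries, and Gbp7 43 to 79 and 31 to 42.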

Other observations

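SOCS proteins hand their targets to a ubiquitin ligase built from elongin B, elongin C, cullin 5 and Rnf7, and these partners moved little. Of 6 tested, 1 was lower and 1 higher. Elob fell from 134 ± 2.20 to 122 ± 2.07 CPM (edgeR quasi-likelihood adjusted p = 0.00813, and 0.0545 without control replicate 2). Eloc rose from 65.2 ± 2.24 to 72.0 ± 1.90 CPM (adjusted p = 0.0109, and 0.0603 without control replicate 1 or 0.0621 without fed replicate 2). Cul5 had 47.8 ± 1.76 and 47.5 ± 1.98 CPM (adjusted p = 0.899).

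Among 9 tested inhibitors of JAK and STAT signalling outside the SOCS family, Ptpn1, a phosphatase that acts on Jak2 and Tyk2, fell from 111 ± 2.97 to 84.3 ± 1.58 CPM (edgeR adjusted p = 1.00e-07). Pias2, a SUMO ligase of the STAT inhibitor family, rose by 0.16 ± 0.045 on the log2 scale (adjusted p = 0.00718, and 0.0517 without fed replicate 3). The other 7 did not pass, among them Ptpn11, the phosphatase that binds gp130 at the site Socs3 uses, at 294.5 ± 5.32 CPM in control and 302 ± 8.01 CPM in fed cells. The number higher was 1, but 0 without fed replicate 3 and 2 with library totals only, with the replicate block or without control replicate 2.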
